A study of Mus musculus with 16 samples.

Results

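The comparison set 4 arrays of Sham+CDTX muscle against 4 arrays of Sham+Saline muscle, 8 of the 16 arrays of the series, and all 8 were chosen by their labels alone. Both groups were female mice that had sham surgery in place of a spinal cord injury (SCI), so neither group carried a lesion of the cord. Sham+CDTX mice had an intramuscular injection of cardiotoxin (CDTX), and Sham+Saline mice an intramuscular injection of saline. Whole hamstring muscle, called hindlimb muscle in the extraction protocol, was taken 2 days after surgery, and its total RNA was measured on Illumina expression arrays. Strain, age, toxin dose and whether mice were pooled are not given in the sources used here. The labels number the samples 1 to 4 in each group without saying that each number is a separate mouse. The p-values for genes below thus rest on the spread between samples. That spread was estimated within every group of the fit, the SCI groups included. In whole muscle RNA, fewer cells of a type and less RNA per cell cannot be told apart.

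Cardiotoxin is a small membrane-active protein of cobra venom that lyses muscle fibres and is widely used to start muscle regeneration. It leaves the basement membrane of the fibre largely in place, and satellite cells, the resident muscle stem cells, divide beneath it and fuse into new fibres. Neutrophils enter such muscle first, monocytes follow and become macrophages that clear the fibre debris, and fibroadipogenic progenitors, the resident mesenchymal cells, expand and make matrix for a time.

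Levels are given as log2 normalized intensities of the brightest kept probe of each gene, and differences are Sham+CDTX minus Sham+Saline on that log2 scale. A gene counts as called where its p from a limma model, adjusted by Benjamini-Hochberg over all kept probes, was under 0.05. The Sham+CDTX arrays had a higher mean raw intensity (334 ± 6.04 against 250.9 ± 20.7, SD, n = 4 each) and more detected probes (13369 ± 157 against 11508.2 ± 302), with no overlap in either and an exact two-sided permutation p of 0.0286 for each, the smallest that 4 against 4 arrays allow. Correlations across probes were at least 0.971 within Sham+Saline, at least 0.986 within Sham+CDTX and 0.895 to 0.929 between the groups, and 0 pairs of arrays held identical values. All 8 arrays lay on 1 slide, with the 4 arrays of each group in neighbouring positions, so position and injection cannot be told apart. A probe difference score places each array along the main pattern in which the difference between probes of the same gene varies across arrays. Its sign was set to be positive for Sham+CDTX, so it gives a position and not an amount of disagreement. The score was 0.35 to 0.39 on the Sham+CDTX arrays and -0.25 to -0.16 on the Sham+Saline arrays. Among the SCI arrays 1, the SCI+CDTX 2 array that the labels list as excluded, also scored high, at 0.28.

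One Sham+Saline array stood apart. Of 10952 genes, 36 were at least 2 log2 higher on Sham+Saline 4 than on every other array of its group, against 1 gene for Sham+Saline 3 and 0 for each of the other 6 sham arrays. The genes farthest from the rest, named after their values were seen, were the neutrophil alarmins S100a8 and S100a9, the cartilage and bone collagenase Mmp13, the eosinophil granule gene Prg2, the neutrophil granule genes Camp and Ltf, the red cell genes Eraf and Slc4a1, and the cartilage collagen Col2a1. Mmp13 was at 4.59, 4.32 and 4.96 on Sham+Saline 1 to 3 and at 10.93 on Sham+Saline 4, while Col2a1 was at 4.45, 4.46 and 5.17 and at 9.46. Camp was at 4.57, 4.19 and 4.42 on the first 3 arrays and at 9.87 on the fourth, and Slc4a1 was at 4.35, 4.36 and 4.63 and at 9.61. Summed linear levels over the neutrophil list ranged from 320 to 12930 in Sham+Saline and from 846.5 to 1189 in Sham+CDTX, and those of the tendon, cartilage and bone list from 242.1 to 1136 and from 261.8 to 293.3. Results that rest on this array are given with and without it.

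**Figure D1:**
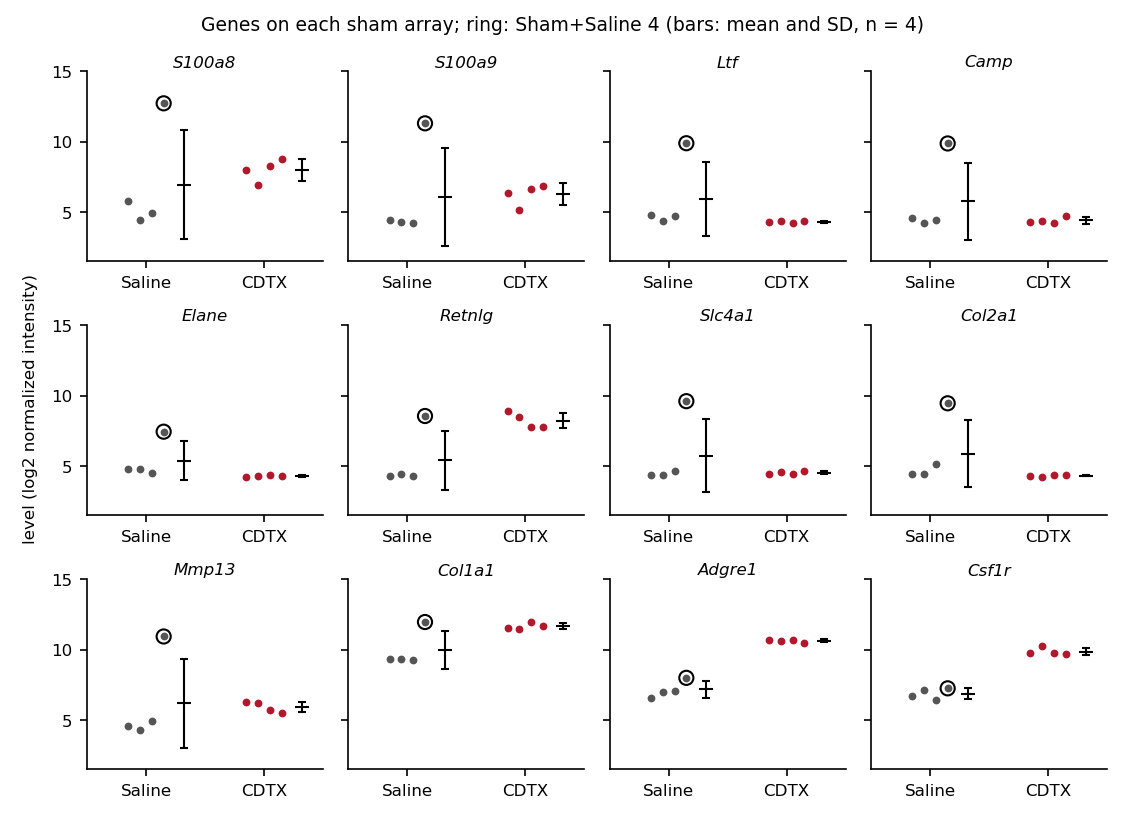
Levels (log2 normalized intensity, vertical axis) of 12 genes on each of the 8 sham arrays. Grey points are Sham+Saline arrays, red points Sham+CDTX arrays, the ring marks Sham+Saline 4, and bars give the mean and SD of 4 arrays. S100a8, S100a9, Ltf, Camp, Elane, Slc4a1, Col2a1 and Mmp13 were higher on Sham+Saline 4 than on any other sham array, while Adgre1 and Csf1r separated the groups on all 8 arrays.

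A large share of the measured genes differed between the groups at day 2. Of 10952 genes, 5541 (50.6%) were called, 2600 higher (23.7%) and 2941 lower (26.9%), and the median difference of all genes was -0.05. The groups did not overlap in 5160 genes (47.1%). Counts of list genes called, and statements below that the groups lay apart, are to be read beside these shares. Over 14763 probes, 7219 (48.9%) were called, and 1407 were higher and 1069 lower by at least 1 log2. Differences are relative to the middle of the probes, because the arrays were set to 1 distribution: after median scaling instead, 85.1% of called probes were higher against 47.3% here, and the median of all probes moved to 0.33. A fit over all 16 arrays that included the probe difference score called 3203 probes, of which 2163 were calls of the model without it in the same direction, and 155 of the original calls were called in the opposite direction. Only SCI+CDTX 2 keeps the score from coinciding with the Sham+CDTX group there, so values from that fit rest on 1 array. Without Sham+Saline 4 the count was 7084 of 14648 probes.

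**Figure D2:**
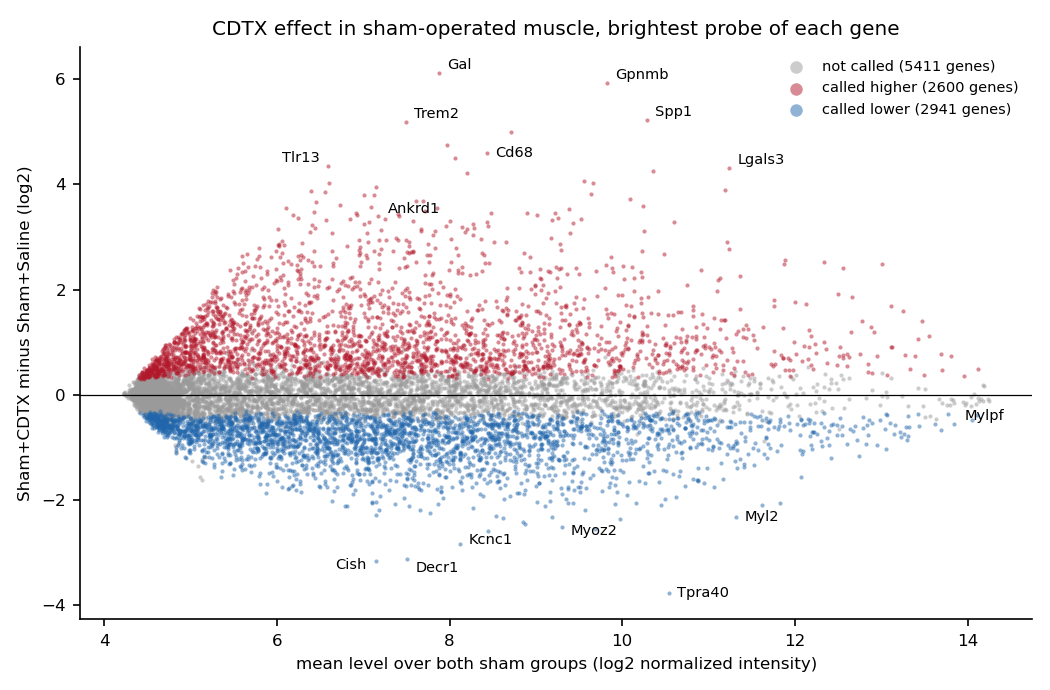
Difference between Sham+CDTX and Sham+Saline (log2, vertical axis) against the mean level over both groups (log2 normalized intensity, horizontal axis) for the brightest probe of each of 10952 genes. Red points are the 2600 genes called higher, blue points the 2941 called lower and grey points those not called; the largest rises (Gal, Gpnmb, Spp1, Trem2) exceed the largest falls (Tpra40, Cish, Decr1) in size.

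The largest rises included many genes known from phagocytes, together with the neuropeptide galanin. Gal, which encodes galanin, a peptide made by injured sensory neurons among other cells, was at 11.39, 10.65, 10.95 and 10.75 on the 4 Sham+CDTX arrays and at 5.54, 4.34, 4.31 and 5.07 on the 4 Sham+Saline arrays. The groups lay far apart, and the difference was 6.12 (standard error 0.52, limma adjusted p 4.36e-08). Gpnmb, a transmembrane glycoprotein of lipid-loaded and phagocytic macrophages, was at 12.65, 12.79, 13.06 and 12.64 after CDTX and at 7.35, 6.60, 7.04 and 6.47 after saline (difference 5.92, standard error 0.30, limma adjusted p 2.28e-10). All 4 kept Gpnmb probes were called higher. Spp1, which encodes the secreted matrix protein osteopontin, was at 12.96, 12.72, 13.07 and 12.84 and at 7.43, 6.23, 6.79 and 10.23. Its highest control value came from Sham+Saline 4, and its difference was 5.23, or 6.06 without that array. Trem2, a lipid-sensing receptor of macrophages, was at 10.33, 9.89, 10.10 and 10.02 against 5.58, 4.61, 4.35 and 5.04 (difference 5.19, standard error 0.51, limma adjusted p 1.81e-07). Behind these came Ms4a6d (5.00), Ctss, a lysosomal protease of antigen presenting cells (4.75), Cd68, a lysosomal glycoprotein of macrophages (4.61), the monocyte-attracting chemokine Ccl7 (4.50), the endosomal receptor for bacterial RNA Tlr13 (4.35), Lgals3, which encodes galectin-3 (4.31), the Fc receptor signalling chain Fcer1g (4.25), Ms4a7 (4.22) and the C-type lectin receptor Clec4d (4.02). Tlr13 was detected on 0 of 4 Sham+Saline arrays, so that its rise is at least 15.9-fold. With the probe difference score the call of Spp1 ended (difference 3.73), while those of the other 12 genes of this paragraph remained.

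The largest falls included genes of the membrane skeleton, the Z-disc and fat oxidation. Tpra40, which encodes a putative transmembrane receptor, was at 8.64, 9.03, 8.46 and 8.50 after CDTX and at 12.70, 12.54, 11.84 and 12.60 after saline, the largest fall by the naming rule (difference -3.77). With the probe difference score it stood at 0.41 and was not called, and the gene has only 1 kept probe. Cish, a feedback inhibitor of cytokine and growth hormone signalling, was at 5.83, 5.38, 5.68 and 5.4 against 7.14, 8.93, 9.71 and 9.14, with a wide range in the controls and no overlap (difference -3.16, standard error 0.50, limma adjusted p 4.2e-05). Decr1, a mitochondrial enzyme for unsaturated fatty acids, was at 6.0, 5.95, 5.95 and 5.88 against 9.29, 9.0, 8.79 and 9.22, a separation far beyond the range within either group (difference -3.13, standard error 0.16, limma adjusted p 2.69e-10). The potassium channel gene Kcnc1 was at 6.44, 6.61, 6.89 and 6.91 against 9.84, 9.52, 9.50 and 9.29 (difference -2.82). Ankrd2, a stretch-responsive ankyrin repeat protein of the sarcomere, differed by -2.58, Sptb, the beta-spectrin of the membrane skeleton, by -2.55, the Z-disc protein gene Myoz2 by -2.50, the retinol saturase gene Retsat by -2.42, the secreted phospholipase gene Pla2g12a by -2.36 and the lipogenesis gene Thrsp by -2.28. The groups did not overlap in any of these 10 genes, which the naming rule requires of the largest differences. With the score the calls of Cish (-2.03), Sptb (-0.43), Retsat (-0.04) and Thrsp (-0.23) ended, and those of Decr1, Kcnc1, Ankrd2, Myoz2 and Pla2g12a remained.

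**Figure D3:**
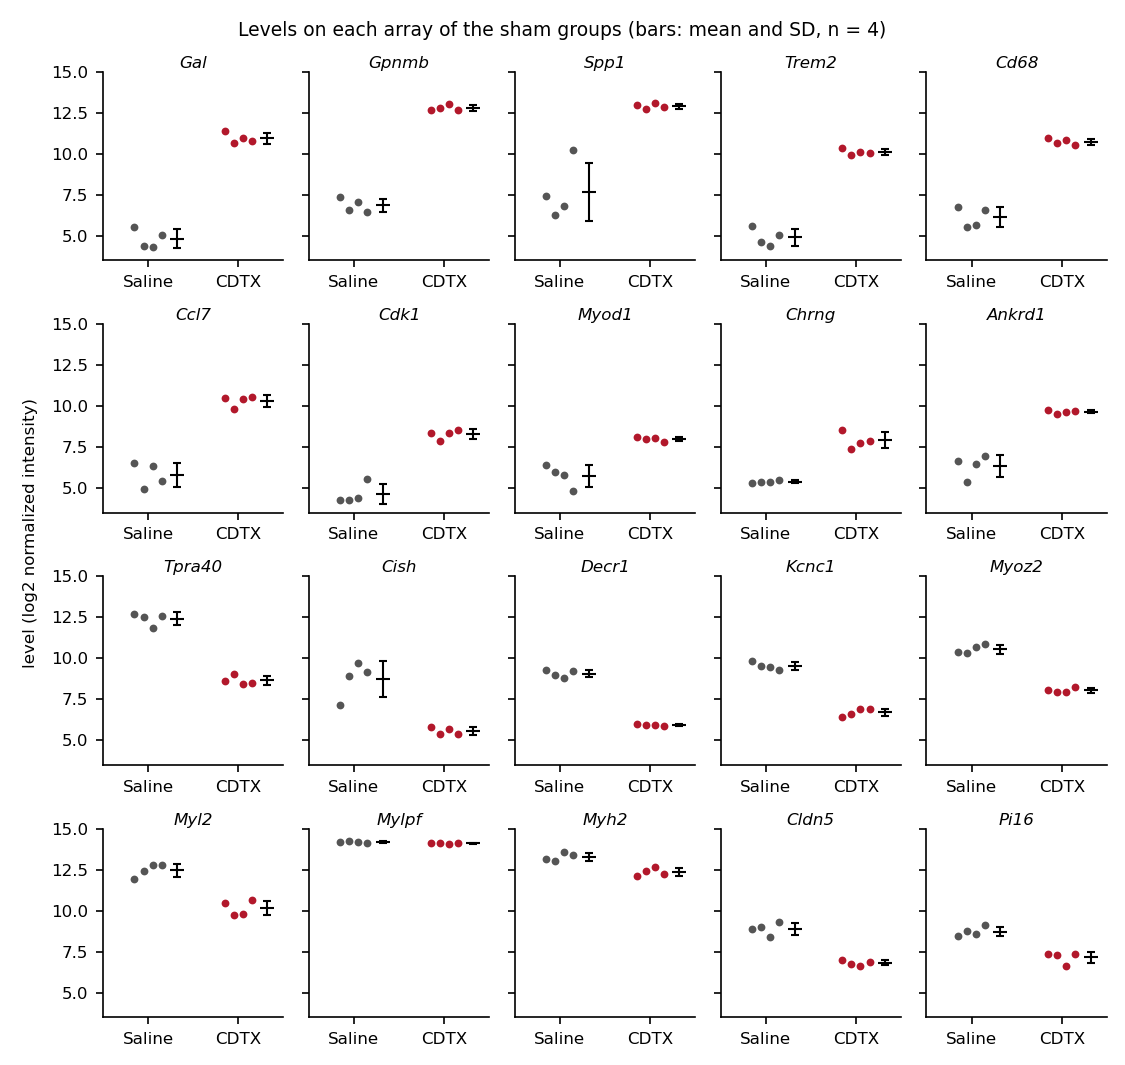
Levels (log2 normalized intensity, vertical axis) of 20 genes on the 4 Sham+Saline arrays (grey) and the 4 Sham+CDTX arrays (red), with bars for the mean and SD. Gal, Gpnmb, Trem2, Cd68 and Cdk1 lay higher on all 4 Sham+CDTX arrays, Decr1, Kcnc1, Myoz2 and Myl2 lower, and Mylpf was at 14.09 to 14.26 on all 8 arrays.

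The smallest adjusted p-values named a few further genes with tight replicates. Gdf15, a secreted stress cytokine of the TGF-beta family, was at 6.65, 6.52, 6.74 and 6.68 against 4.38, 4.16, 4.28 and 4.26 and was detected on 0 of 4 Sham+Saline arrays, a rise of at least 3.65-fold (limma adjusted p 1.91e-10). Psat1, an enzyme of serine synthesis, rose by 3.17 and the actin-binding protein gene Marcksl1 by 2.76 (limma adjusted p 3.97e-10 for both).

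Of 12 genes of the slow contractile list, all with a kept probe, 10 were lower, 1 was higher and the median was -1.60, against 26.9% of all genes called lower and a median of -0.05. Of 22 kept genes of the fast contractile list, 3 were higher and 6 lower, with a median of -0.17, and 2 and 10 after median scaling. Whether the lists differ from each other was not tested. Myl2, the slow and cardiac regulatory myosin light chain, was at 10.46, 9.77, 9.80 and 10.63 against 11.94, 12.43, 12.76 and 12.77 (difference -2.31, standard error 0.32, limma adjusted p 8.06e-06). The other slow myosin light chain, Myl3, was at 10.78, 10.43, 10.52 and 10.59 against 12.08, 12.51, 12.92 and 13.15 (difference -2.08). For both genes every Sham+CDTX array lay below every Sham+Saline array. Csrp3, a Z-disc LIM protein enriched in slow fibres, fell by 1.58. The summed linear level of the slow list was 15360 to 17380 after CDTX and 30410 to 45980 after saline.

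The genes of the fast contractile list, which are not all confined to fast fibres, did not share 1 direction. Mylpf, the fast regulatory myosin light chain, was at 14.12, 14.12, 14.09 and 14.14 after CDTX and at 14.18, 14.26, 14.21 and 14.14 after saline (difference -0.08, limma adjusted p 0.586, not called). The myosin light chain gene Myl1 stood at 0.20 (limma adjusted p 0.169, not called), while its second kept probe was called lower at -0.53 and the authors' deposited table gave -0.38 log2. Of the fast myosin heavy chains, Myh4 (type 2B) was higher by 0.35 and Myh1 (type 2X) by 0.70, while Myh2 (type 2A) was lower, at 12.12, 12.44, 12.64 and 12.22 against 13.15, 13.06, 13.60 and 13.38 (difference -0.94). The call of Myh4 is weak, with a limma adjusted p of 0.0363. It ended after median scaling (0.14), with the probe difference score (0.34) and with the replicate number as a block. It also ended without any one of Sham+Saline 2 (0.33), Sham+Saline 4 (0.33), Sham+CDTX 2 (0.33), Sham+CDTX 3 (0.35) or Sham+CDTX 4 (0.36). For Myh4 the ratio of group means in the authors' deposited table had the opposite sign (-0.21 log2). Myh1 turned to -1.38 (not called) with the probe difference score, and its call also ended in the fit over all 16 arrays. The second kept probe of Myh1 was not called (0.14). Mybpc1 was the lowest gene of this list (-1.95), although it encodes the slow-type myosin binding protein. The calcium buffer of the sarcoplasmic reticulum Casq1 (-1.60) and the Z-disc crosslinker Actn2 (-1.04) were also lower, and the tropomyosin gene Tpm1 was higher (1.30). Mylpf, Myl1 and Myh4 were the sixth, thirteenth and twenty-ninth brightest of 10952 genes in Sham+Saline, near the top of the intensity range, and what that position does to their differences was not tested.

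In the list of membrane repair genes and calcium proteases, 8 of 13 were higher and 2 lower (median 1.06). S100a11, which binds annexins at membrane wounds, was at 12.44, 11.87, 12.18 and 12.32 against 9.88, 9.95, 10.05 and 10.16 (difference 2.19), and the annexins Anxa1 and Anxa2, which bind exposed membrane lipid, differed by 2.14 and 1.76. In the dystrophin complex and costamere list 6 of 14 were lower and 1 higher (3 and 2 after median scaling), and the median of that list was -0.37 and turned to 0.06 after median scaling. Of 11 genes for muscle channels and pumps 9 were lower and 0 higher (median -0.65), against 2 lower and 2 higher after median scaling, led by Kcnc1 and the inward rectifier Kcnj2 (-1.33).

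Genes of fat oxidation and of the respiratory chain were mostly lower. Of 21 fatty acid oxidation and PGC1 genes, 17 were lower and 0 higher (median -0.76). Besides Decr1, these included the thiolase gene Acaa2 at 7.43, 7.65, 7.47 and 8.01 against 9.76, 9.72, 9.43 and 9.61 (difference -1.99), called lower at all 4 of its probes, the muscle PGC1 partner Perm1 (-1.65) and Cpt1b, which admits fatty acids to mitochondria (-1.5). Of 73 respiratory chain genes 47 were lower and 4 higher (median -0.47), led by the complex I subunits Ndufb10 (-1.61) and Ndufv1 (-1.56) and the complex II subunit Sdhc (-1.40). Their summed linear level was 267200 to 301600 after CDTX and 377100 to 402900 after saline. Of 19 glycolysis and glycogen genes 9 were lower and 2 higher; the muscle glycogen phosphorylase gene Pygm fell by 1.33 and Eno1, the enolase of non-muscle cells, rose by 1.33. After median scaling 8 fatty acid oxidation genes were called lower and 1 higher, and 30 respiratory chain genes lower and 9 higher.

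**Figure D4:**
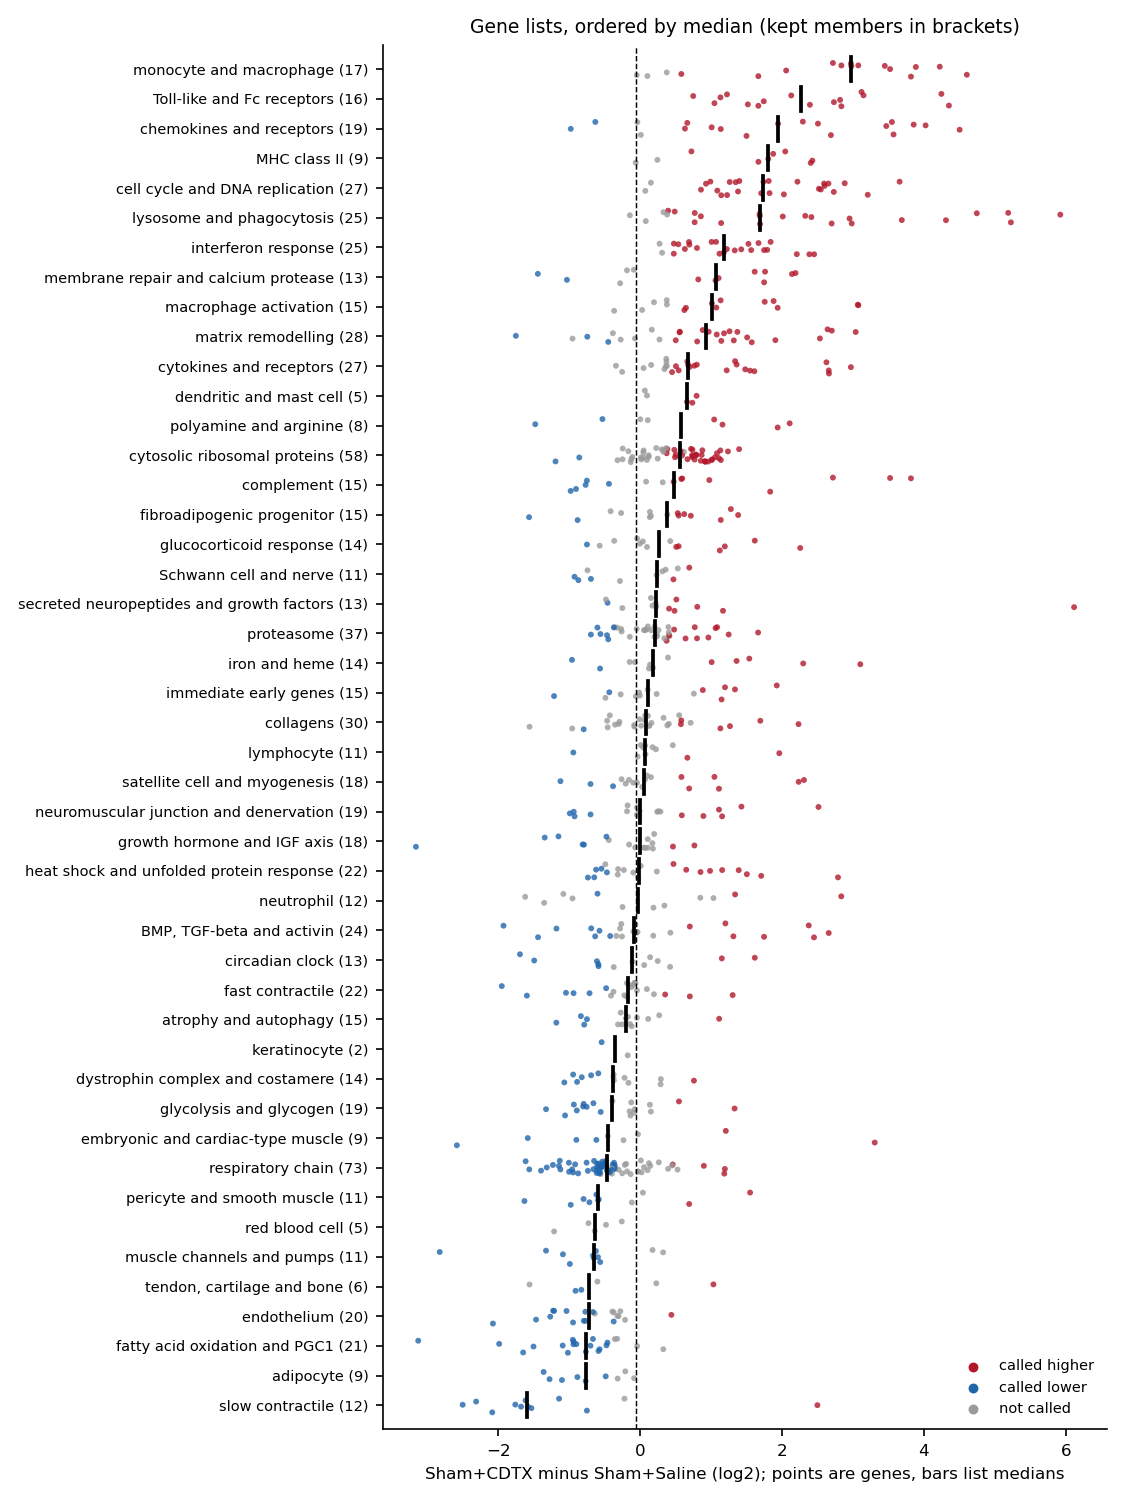
Difference between Sham+CDTX and Sham+Saline (log2, horizontal axis) for the kept genes of 46 lists, ordered by list median; the number of kept genes is in brackets. Points are genes, red called higher, blue called lower and grey not called; black bars are list medians, and the dashed line is the median of all genes. Macrophage, Toll-like and Fc receptor, and chemokine lists lie highest, and slow contractile, adipocyte and fatty acid oxidation lists lowest.

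Macrophage genes rose as a group. Of 17 kept monocyte and macrophage markers 14 were higher and 0 lower (median 2.97), against 23.7% of all genes called higher, and their summed linear level was 22370 to 25660 after CDTX and 1718 to 3027 after saline. Adgre1, which encodes the macrophage surface antigen F4/80, was at 10.72, 10.63, 10.69 and 10.47 against 6.59, 7.02, 7.10 and 8.0 (difference 3.45, standard error 0.33, limma adjusted p 1.35e-07). Csf1r, the receptor for macrophage colony stimulating factor, was at 9.74, 10.25, 9.73 and 9.69 against 6.72, 7.10, 6.45 and 7.25 (difference 2.97). For both genes every Sham+CDTX array lay above every Sham+Saline array. The lysozyme gene Lyz2 rose by 3.89, the complement gene C1qb by 3.82, and the mannose receptor gene Mrc1, a marker of resident and repair-phase macrophages, by 3.08, a call that ended with the probe difference score (1.31). Itgam, the integrin CD11b shared by myeloid cells, was dim and detected on 0 of 4 Sham+Saline arrays, a rise of at least 1.14-fold.

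All 16 kept Toll-like and Fc receptor genes were higher (median 2.26), as after leaving out Sham+Saline 4. Besides Tlr13 and Fcer1g they included the receptor for single-stranded RNA Tlr7, at least 6.99-fold higher, and the IgG receptor gene Fcgr4 (3.12). Tlr13 and Tlr7, undetected in Sham+Saline, passed the probe filter through other arrays, and such genes could hardly be called lower. Tlr3 and Syk of this list had no kept probe. Of 25 lysosome and phagocytosis genes 21 were higher and 0 lower (median 1.69), and their summed linear level was 73930 to 80860 against 20610 to 27020. Of 9 MHC class II genes 7 were higher, among them the invariant chain gene Cd74 (2.43) and H2-Ab1 (2.41). In the macrophage activation list 10 of 15 were higher. Chil3 rose by 3.07, or by 4.00 without Sham+Saline 4, but its second kept probe was not called (1.42). Arg1, the arginase of wound macrophages, was detected on 0 of 4 Sham+Saline arrays and rose at least 2.71-fold. With the score neither Chil3 (1.01) nor Arg1 (2.67) was called. In the complement list 8 of 15 were higher and 5 lower (median 0.47), or 10 and 1 after median scaling and 6 and 1 with the score, with the properdin gene Cfp at 1.83.

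The comparison of neutrophil genes turned on 1 control array. Of 12 kept neutrophil markers 2 were higher and 1 lower, beside 23.7% and 26.9% of all genes, and the median was -0.03. S100a8, one chain of the alarmin calprotectin, was at 8.01, 6.94, 8.25 and 8.76 after CDTX, at 5.76, 4.43 and 4.91 on Sham+Saline 1 to 3 and at 12.72 on Sham+Saline 4. Its partner S100a9 was at 6.37, 5.14, 6.63 and 6.88 after CDTX, at 4.46, 4.30 and 4.21 on Sham+Saline 1 to 3 and at 11.30 on Sham+Saline 4. Both genes were thus higher after CDTX than on 3 of the 4 control arrays and lower than on the other, and neither was called with all 4 (differences 1.03 and 0.19, limma adjusted p 0.491 and 0.919). The ratios of group means in the authors' deposited table had the opposite sign (-2.58 and -2.93 log2). Without Sham+Saline 4, 4 of 11 markers were called higher and 0 lower, S100a8 stood at 2.97 (limma adjusted p 3.29e-05), S100a9 at 1.96 and still not called (limma adjusted p 0.0793), the siderophore-binding lipocalin gene Lcn2 at 1.66 in place of 0.85, and Retnlg, a resistin-like gene of neutrophils, at 3.91 in place of 2.84. Csf3r, the receptor for granulocyte colony stimulating factor, was called either way and was at 6.02, 6.28, 6.83 and 6.07 against 5.31, 4.80, 4.79 and 4.94 (difference 1.34). Of its other kept probes, ILMN_2806180 was called higher (1.11) and ILMN_1241302 was not called (0.25). Trem1, a receptor that amplifies myeloid activation, was called lower (-0.60) with overlapping groups, and not without Sham+Saline 4 (-0.47), Sham+Saline 2 (-0.51), Sham+CDTX 1 (-0.53) or Sham+CDTX 3 (-0.52). The secondary granule gene Ltf was detected on 0 of 4 Sham+CDTX arrays and on 2 of 4 Sham+Saline arrays.

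Chemokine and cytokine genes were mostly higher. Of 19 chemokine and chemokine receptor genes 15 were higher and 2 lower (median 1.95). Ccl7, a ligand of the monocyte receptor Ccr2, was at 10.49, 9.81, 10.40 and 10.54 against 6.50, 4.94, 6.32 and 5.46 (difference 4.50). The CC chemokines Ccl9, Ccl4 and Ccl6, all attractants of myeloid cells, rose by 4.02, 3.86 and 3.57. Of 27 cytokine and receptor genes 18 were higher and 0 lower (median 0.68), including the receptor chain for granulocyte-macrophage colony stimulating factor Csf2ra (2.66), the anti-inflammatory cytokine gene Tgfb1 at 7.90, 8.80, 8.51 and 7.92 against 5.74, 5.70, 5.28 and 5.78 (difference 2.66), and the interleukin 10 receptor gene Il10ra, at least 5.51-fold higher. With the probe difference score 8 chemokine and 11 cytokine genes were called higher, and the calls of Ccl9 (2.66) and Ccl6 (2.15) ended.

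Interferon-stimulated genes rose nearly throughout the list. Of 25 kept genes 23 were higher and 0 lower, with a median of 1.18. Ifit2, which encodes an RNA-binding antiviral protein, was at 8.04, 8.58, 8.13 and 8.02 against 5.79, 5.60, 5.77 and 5.79 (difference 2.45, standard error 0.18, limma adjusted p 1.14e-08). The antiviral gene Oasl2 rose by 2.39, the transcription factor gene Irf7 by 2.21 and Ifit3 by 1.84. Every Sham+CDTX array lay above every Sham+Saline array for these 4 genes. The element that interferon-activated STAT and IRF factors bind is built on the letters GAAA, then NN (any pair of bases), then GAAA, and these 10 letters were searched on both strands, overlaps included, in the 250 bases before each start site in RefSeq promoters of GRCm38.p6. Of 18 interferon list genes with a RefSeq promoter, 9 (50%) held a match, against 284 of 8286 genes with a kept probe (3.43%). Among the members called higher it was 7 of 16 (43.8%), while the 2 members not called held 2 matches each. A link between match and rise was not tested. The 3 genes shown were called higher and were picked because they hold the core in different numbers, at 2, 3 and 1 matches in the order below, with the matches in capitals, 5′ to 3′ along the gene's strand.
Ifit3 (chr19:34583363-34583426, strand +): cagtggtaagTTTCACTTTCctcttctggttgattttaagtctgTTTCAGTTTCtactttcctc
Isg15 (chr4:156200865-156200906, strand -): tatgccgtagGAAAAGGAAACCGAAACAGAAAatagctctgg
Rsad2 (chr12:26456553-26456582, strand -): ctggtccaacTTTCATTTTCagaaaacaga
Isg15 and Rsad2, which were chosen after the values were seen, encode a ubiquitin-like protein and an antiviral enzyme, and differed by 1.75 and 1.79. Ifit2, Oasl2 and Irf7 had no match in this window, which says only that these letters are not there. A match is a description of the sequence, and no binding was measured.

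Proliferation genes were higher almost without exception. Of 27 cell cycle and DNA replication genes 25 were higher and 0 lower (median 1.74), and their summed linear level was 7789 to 9252 against 1968 to 3285. Cdk1, the kinase that starts mitosis, was at 8.35, 7.86, 8.36 and 8.54 against 4.28, 4.27, 4.39 and 5.55 (difference 3.66, standard error 0.31, limma adjusted p 4.61e-08). Sham+Saline 4 was again the highest control. Uhrf1, which keeps DNA methylation through replication, rose by 3.21, the mitotic cyclin gene Ccnb1 by 2.88 and Cdc20, which activates the anaphase ligase, by 2.73; without Sham+Saline 4 Uhrf1 and Cdc20 stood at 3.71 and 3.34. Promoters of mitotic genes often carry paired CCAAT boxes, the site of the factor NF-Y. The letters CCAAT were searched on both strands in the same 250 bases, and 12 of 23 cell cycle genes with a promoter (52.2%) held at least 2, against 1216 of 8286 genes with a kept probe (14.7%). Among the members called higher it was 11 of 22 (50%). Of the 4 named genes, which all hold at least 2 boxes, the kinase, the cyclin and the anaphase activator are shown, with the boxes in capitals.
Cdk1 (chr10:69352946-69353130, strand -): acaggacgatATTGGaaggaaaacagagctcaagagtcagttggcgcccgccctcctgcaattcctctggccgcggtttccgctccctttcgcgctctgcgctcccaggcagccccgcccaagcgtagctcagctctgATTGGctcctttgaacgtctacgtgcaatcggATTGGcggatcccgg
Ccnb1 (chr13:100786539-100786595, strand -): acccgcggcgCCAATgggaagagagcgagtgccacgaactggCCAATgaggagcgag
Cdc20 (chr4:118437344-118437406, strand -): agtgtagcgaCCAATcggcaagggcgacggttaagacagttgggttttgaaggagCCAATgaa
The Cdk1 window holds 3 boxes and the windows of Ccnb1 and Cdc20 hold 2 each.

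Some genes of activated myoblasts were among those higher. Of 18 kept satellite cell and myogenesis genes 6 were higher and 3 lower (median 0.05), beside 23.7% and 26.9% of all genes. After median scaling 11 were higher and 1 lower, and Pax7, Pax3 and Myf5 had no kept probe. Myod1, the factor of activated myoblasts, was at 8.13, 8.0, 8.04 and 7.80 against 6.42, 6.01, 5.78 and 4.82 (difference 2.24, standard error 0.23, limma adjusted p 3.25e-07). Myog, which drives myoblasts into differentiation, was at 8.13, 7.19, 7.21 and 7.55 against 6.57, 6.48, 6.40 and 6.18 (difference 1.11), but its second kept probe was not called (0.07). The adhesion molecule gene Vcam1, found on satellite cells and on activated endothelium, rose by 2.31, and the Notch target Heyl fell by 1.12. Ankrd1, the cardiac ankyrin repeat protein induced by muscle stress and injury, was at 9.77, 9.50, 9.66 and 9.72 against 6.65, 5.38, 6.44 and 6.95 (difference 3.31), and its relative Ankrd2 stood at -2.58. Both belong to the embryonic and cardiac-type muscle list, in which 2 of 9 genes were higher and 4 lower (median -0.46), beside the same shares of all genes.

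Of 19 neuromuscular junction and denervation genes 6 were higher and 4 lower, beside 23.7% and 26.9% of all genes (median -0.01), or 11 and 0 after median scaling. Chrng, the embryonic gamma subunit of the acetylcholine receptor, was at 8.56, 7.40, 7.78 and 7.89 against 5.31, 5.36, 5.4 and 5.50 (difference 2.51, standard error 0.27, limma adjusted p 4.22e-07). The alpha subunit gene Chrna1 was at 10.43, 9.83, 9.96 and 9.85 against 8.61, 8.52, 8.56 and 8.65 (difference 1.43), with all 3 probes called higher. Runx1, a transcription factor induced in denervated fibres, was detected on 0 of 4 Sham+Saline arrays and rose at least 1.61-fold. The atrophy ligase genes Trim63 and Fbxo32 fell by 1.18 and 0.83, and neither was called after median scaling (-0.44 and -0.11). In their list 4 of 15 genes were lower and 1 higher (0 and 5 after median scaling), beside 26.9% and 23.7% of all genes.

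Of 15 markers of fibroadipogenic progenitors, the fibroblast-like cells of muscle, 7 were higher and 2 lower, beside 23.7% and 26.9% of all genes (median 0.38), or 11 and 1 after median scaling. Pdgfra, the growth factor receptor that defines these cells, was at 9.43, 9.74, 9.57 and 9.38 against 7.58, 7.99, 8.37 and 8.64 (difference 1.38), and Ly6a, which encodes Sca-1, rose by 1.28. Cxcl14 rose by 1.14, while Pi16, a marker of a universal fibroblast state, was at 7.35, 7.33, 6.66 and 7.35 against 8.48, 8.77, 8.58 and 9.12 and fell by 1.57. With the probe difference score 1 marker was called higher and 2 lower, and Pdgfra (0.38), Ly6a (0.73), Cxcl14 (-0.01) and Pi16 (0.38) were not called.

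Of 30 kept collagen genes 6 were higher, a smaller share than the 23.7% of all genes, and 1 was lower (median 0.09), or 9 and 2 without Sham+Saline 4 and 14 and 1 after median scaling. Col3a1, a fibrillar collagen of early repair, was at 11.89, 11.39, 10.95 and 11.17 against 8.72, 9.01, 9.30 and 9.44 (difference 2.23), and its other kept probe was not called (0.53). Col1a1, the main fibrillar collagen of scar, tendon and bone, was at 11.54, 11.47, 11.99 and 11.67 after CDTX, at 9.31, 9.35 and 9.28 on Sham+Saline 1 to 3 and at 11.96 on Sham+Saline 4, so that its difference was 1.69, or 2.35 without that array. Col6a1, of the collagen around the fibre, rose by 1.27, although 2 of its 3 probes were not called. All 3 calls ended with the score (1.56, 0.22 and 0.83). In the matrix remodelling list 19 of 28 genes were higher and 3 lower: the protease inhibitor Timp1 rose by 3.04, the collagen crosslinking enzyme Lox by 2.70 and the urokinase gene Plau by 2.53, and the macrophage elastase Mmp12 rose at least 4.39-fold, with 0 of 4 Sham+Saline arrays detecting it. Of 24 BMP, TGF-beta and activin genes 7 were higher and 7 lower, beside 23.7% and 26.9% of all genes, or 11 and 3 after median scaling. Id2, an inhibitor of differentiation factors, rose by 2.45 and the activin receptor gene Acvr2b fell by 1.93, and both calls ended with the score (0.94 and -0.49). The cartilage factor gene Sox9 rose by 1.03, the only gene called higher of 6 kept in the tendon, cartilage and bone list, where 2 were lower.

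Endothelial markers were mostly lower after CDTX. Of 20 endothelial genes 12 were lower and 1 higher (median -0.72), or 6 and 4 after median scaling, and their summed linear level was 6235 to 6952 after CDTX and 12350 to 13540 after saline. Cldn5, the tight junction protein of endothelium, was at 7.01, 6.77, 6.65 and 6.90 against 8.87, 9.0, 8.41 and 9.33 (difference -2.07, standard error 0.18, limma adjusted p 5.71e-08). The water channel gene Aqp1, called lower at all 3 of its probes, differed by -1.23, the endothelial factor gene Sox18 by -1.27 and the angiogenic ligand gene Vegfa, which fibres themselves make, by -1.47. With the probe difference score the list median was 0.13, and Cldn5 (0.22), Aqp1 (0.12) and Sox18 (0.34) turned sign without a call, while Vegfa remained called. Of 11 pericyte and smooth muscle genes 7 were lower and 2 higher, or 1 and 3 after median scaling (median -0.59, or 0.09 after it): the potassium channel gene Kcnj8 fell by 1.63 and the pericyte marker Rgs5 by 0.98, and Mustn1, a muscle and skeletal repair gene, rose by 1.55.

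Of 9 adipocyte genes 6 were lower and 0 higher (median -0.77), with the lipid droplet gene Plin4 at -1.36, the leptin gene Lep at -1.28 and the adiponectin gene Adipoq at -0.88, whose call ended without Sham+CDTX 3 (-0.67). With the score 1 was higher and 0 lower, and after median scaling 1 was higher and 3 lower. Of 11 Schwann cell and nerve genes 2 were higher and 3 lower (6 and 0 after median scaling); the regrowth protein gene Gap43 rose at least 1.2-fold (0 of 4 Sham+Saline arrays detected it), and the myelin gene Mag fell by 0.92. The list's median was 0.23 at the brightest probes and -0.34 over every kept probe. Of 11 lymphocyte markers 2 were higher and 1 lower, beside 23.7% and 26.9% of all genes, and the natural killer receptor gene Klrd1 rose at least 2.82-fold, again undetected on all 4 Sham+Saline arrays. Of 5 dendritic and mast cell genes 3 were higher, the lectin gene Cd209a at least 1.15-fold and the mast cell protease genes Tpsb2 and Cpa3 by 0.80 and 0.74 with overlapping groups. The call of Tpsb2 ended without Sham+Saline 1 (0.64) or Sham+Saline 3 (0.64). That of Cpa3 ended without Sham+Saline 1 (0.50), Sham+Saline 3 (0.69), Sham+CDTX 1 (0.70), Sham+CDTX 2 (0.75) or Sham+CDTX 4 (0.73). In the red blood cell list limma called 0 of 5 genes, while 1 of 5, the beta-globin gene Hbb-b1, had an unadjusted p under 0.05 (0.0446). Of 2 kept keratinocyte genes 1 was lower.

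The stress, iron and proteasome lists held calls in both directions, with more higher and fewer lower calls after median scaling. Their counts stand beside 23.7% of all genes called higher and 26.9% called lower. Calr, the calcium-binding chaperone of the endoplasmic reticulum, was at 9.37, 9.34, 9.53 and 9.62 against 6.65, 6.04, 6.60 and 7.41 (difference 2.79), and turned to -0.78 (not called) with the score. The stress factor gene Atf3 rose by 1.71, within a list in which 9 of 22 chaperone and unfolded protein genes were higher and 5 lower (10 and 1 after median scaling). Hmox1, which degrades heme, was at 7.51, 7.60, 8.62 and 7.99 against 4.39, 5.26, 4.62 and 5.04 (difference 3.10, standard error 0.32, limma adjusted p 3.1e-07), the phagosomal metal transporter gene Slc11a1 rose by 2.30 and the haptoglobin gene Hp by 1.54, in an iron and heme list with 5 of 14 genes higher and 2 lower (9 and 0 after median scaling). The metal-binding protein gene Mt1, a glucocorticoid and zinc target, was at 12.67, 12.44, 12.49 and 12.35 against 10.02, 10.24, 10.14 and 10.52 (difference 2.26), in a glucocorticoid response list with 6 of 14 genes higher and 1 lower (10 and 0 after median scaling). Of 15 immediate early genes 5 were higher and 2 lower (9 and 1 after median scaling); Junb rose by 1.93 and the phosphatase gene Dusp1 fell by 1.21 with overlapping groups. Of 58 cytosolic ribosomal protein genes 33 were higher and 2 lower (median 0.56), among them Rpl3 (1.24) and Rps24 (1.40, or -0.25 and not called with the score). Of 37 proteasome genes 11 were higher and 6 lower, or 24 and 0 after median scaling; the activator gene Psme3 and the core subunit gene Psma4 rose by 1.66 and 1.25, and turned to -0.20 and -0.75 (neither called) with the score.

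In the growth hormone and IGF axis 6 of 18 genes were lower and 2 higher (2 and 6 after median scaling), beside 26.9% and 23.7% of all genes. Cish was the lowest and the insulin receptor substrate gene Irs2 stood at -1.34. Of 13 clock genes 5 were lower and 2 higher, or 2 and 5 after median scaling. The core clock gene Arntl, at 6.08, 6.32, 6.12 and 6.22 against 7.84, 7.45, 7.79 and 7.62, fell by 1.49, while the clock repressor gene Per1 rose by 1.62. What time of day each muscle was taken is not given in the sources used here. In the polyamine and arginine list 4 of 8 genes were higher and 2 lower. The spermidine synthase gene Srm rose by 2.11 at its brightest probe and by 1.39 and 1.8 at the others, and the spermine oxidase gene Smox stood at -1.48 at its brightest probe and between -1.5 and -1.07 at 4 others, all called lower. Of 13 genes for secreted neuropeptides and growth factors 6 were higher and 1 lower; after Gal the next highest was the fibroblast growth factor gene Fgf7 (1.17), which acts on epithelium.

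The CDTX effect was set beside that after SCI to see where the sham result was larger or smaller. The difference of the effects (interaction) was called for 2789 of 10952 genes (25.5%) and for 69 of 146 genes described here under the naming rule. That rule largely picks genes for a large sham effect, which the interaction subtracts. The share among them therefore cannot be set against that of all genes. The effects share no array, and the one after SCI rests on 3 SCI+CDTX and 4 SCI+Saline arrays, since SCI+CDTX 2 was left out. The SCI arrays lay on another slide than the sham arrays. A difference between slides in the CDTX effect and one from SCI therefore cannot be told apart. Gpnmb rose by 5.92 in sham-operated and by 3.20 in SCI mice (interaction -2.72, limma adjusted p 0.000279), and Cd68 by 4.61 and 2.75 (interaction -1.86, limma adjusted p 0.00794). Myod1 rose by 2.24 without SCI and stood at -0.45 after it (interaction -2.69, limma adjusted p 3.31e-05), and Chrng at 2.51 and 0.10 (interaction -2.42). Cldn5 fell by 2.07 without SCI and stood at 0.81 after it (interaction 2.88, limma adjusted p 2.3e-06). In the endothelial list 14 of 20 genes had a called positive interaction and 0 a negative one. For Gal (-2.09, limma adjusted p 0.0555), Lyz2 (-0.37), Adgre1 (-0.80) and Myl2 (-0.76) no interaction was called, which does not show that the effects were equal. The 4 Sham+CDTX arrays also differ from the SCI arrays of this fit in the probe difference score, and its part in the interactions was not tested.

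**Figure D5:**
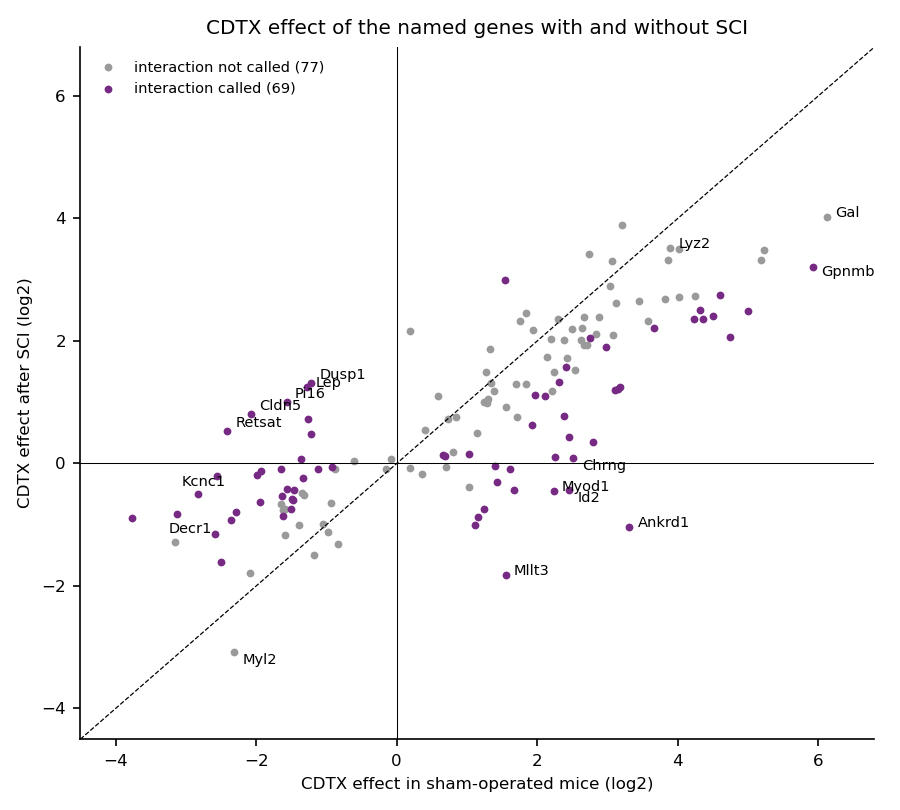
CDTX effect after SCI (log2, vertical axis) against the CDTX effect in sham-operated mice (log2, horizontal axis) for the 146 named genes. Purple points are the 69 genes with a called interaction, grey points the other 77, and the dashed line marks equal effects. Most rises (Gal, Gpnmb, Lyz2) lie in the upper right on or under the line, while Ankrd1, Mllt3, Id2 and Myod1 lie right of zero and below it, and Cldn5, Pi16, Lep and Retsat left of zero and above it.

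Further calls ended with the probe difference score. Among fibre and energy genes these were Casq1 (-1.38), Tpm1 (0.97), Anxa1 (1.60), Kcnj2 (-1.49), Acaa2 (-1.11), Ndufv1 (-0.57), Pygm (-0.43), Smox (-0.81) and Irs2 (-0.66). Among immune, matrix and signalling genes they were Retnlg (2.45), Trem1 (-0.63), Irf7 (2.32), Cpa3 (0.67), Plau (1.34), Heyl (-0.22), Mustn1 (1.63), Runx1 (0.37), Atf3 (1.58), Dusp1 (-0.24) and Per1 (1.20). Among nerve and fat genes they were Gap43 (0.39), Mag (-0.64), Plin4 (-0.53) and Adipoq (-0.61), all of these with their sign kept, while Lep (0.34) and Tpsb2 (-0.51) turned sign without a call. Median scaling ended the calls of Trem1 (-0.36), Sox18 (-0.46), Rgs5 (-0.19), Mag (-0.16), Lep (-0.46) and Adipoq (-0.39).

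Probes of the same gene mostly gave the same direction, with exceptions that limit what a single probe shows. Among 909 genes with the brightest pair of probes both called, 852 (93.7%) had the same direction and 57 the opposite one. Among 564 genes whose brightest probe differed by at least 1 log2, the second probe had the same sign in 524 (92.9%). Over all kept probes 84 genes had probes called in opposite directions. Actb, the beta-actin gene often used as a reference, had its brightest probe at 13.64, 13.67, 13.64 and 13.57 against 13.85, 13.90, 13.64 and 13.72 (difference -0.15, not called), while the probes ILMN_2846865 and ILMN_2588055 stood at -5.47 and -5.37 and ILMN_2617433 at 2.33. Tpm3, the slow tropomyosin gene, was higher by 2.50 at its brightest probe and lower by 1.39, 1.45 and 1.5 at the other 3, so that the 1 slow gene called higher above rests on 1 of 4 probes. Mllt3, a transcription elongation gene, was at 1.55 at its brightest probe and at -1.54, -0.77 and -0.39 at the others. The kinase gene Dyrk1b stood at -1.65 and 1.22, and the catenin gene Ctnnb1 at 0.40, 0.84 and -1.64. Which transcripts these probes measure was not tested, and no direction is given for these 5 genes.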

How the data were processed

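Total RNA of the muscle was labelled as biotin cRNA and hybridised to Illumina arrays, with 1 sample on each array. The deposited intensity values are mean bead intensities per probe without normalization or background subtraction, per the file headers, with a detection p-value for every probe on every array, and bead numbers beside it. GenomeStudio 2011.1 is named in the submitters' processing notes. The final table of the authors holds intensity means of each group, background-subtracted and put through average normalization per the file headers, and served only as an alternative. One sample label lists SCI+CDTX 2 as excluded, so 15 of 16 arrays were used.

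Intensities were background corrected with a normal-exponential model on the detection p-values, an offset of 16 was added, and values were quantile normalized and taken to log2 (neqc, limma 3.58.1, R 4.3.3). Probes with a detection p-value under 0.05 on at least 3 arrays were kept, 14763 of 25697. A probe undetected in 1 group could thus be kept through the groups where it was brighter. The means of the sham and SCI groups were fitted together with lmFit and eBayes, and contrasts were adjusted by Benjamini-Hochberg over all kept probes. The SCI arrays therefore share in the spread behind the standard errors and p-values of the sham comparison. Single measures of an array were compared by exact two-sided permutation. Only the model fit and the calling were tested on simulated data, with independent noise around normalized values of kept probes. A gene is represented by its brightest kept probe. Symbols were looked up through Entrez IDs for 23681 probes, of which 4172 received another symbol. Probes without a match kept the array's symbol, so an older symbol could stand as a separate gene. Where a gene was undetected on every array of 1 group, its fold is given as a lower bound, set against the dimmer group's mean after each of its arrays was raised, where below it, to the lowest signal that array detected. The number of arrays limits the precision.

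Named genes were, by rule, the 15 highest and 15 lowest called differences without overlap, the 4 largest called members of each of 46 gene lists, the first 5 markers of the neutrophil, macrophage, satellite cell and fast contractile lists, the 5 genes whose probes disagree most, and the 5 smallest adjusted p-values on each side. The rule gave 201 genes, of which 146 are described, and genes outside it are said to be chosen after their values were seen or named only as the source of a count. The comparison, the lists and their members were chosen with earlier results of these data known. Alternatives were the scaling, background correction, probe filter, arrays in the fit, moderation, replicate block, a probe difference score (the first component, over 2740 genes, of the difference between a gene's brightest pair of probes, with 33.2% of the variance), other probes, the table of group means and leaving out each sham array. Promoters came from RefSeq (GRCm38.p6). Some genes that the rule names are not reported here. Unused per-sample columns numbered 0.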

Additional observations from a re-analysis of the deposited data

Results flagged for a closer look

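For 69 of 146 genes the CDTX effect after SCI differed from that in sham-operated muscle by the limma interaction test (31 more positive after SCI, 38 more negative). These genes were largely picked for a large sham effect, which the interaction subtracts. Their number and directions therefore do not describe genes at large. Values below are the effect after SCI minus the effect in sham-operated muscle, in log2, and no cause was tested. For Tlr13, Tlr7, Klrd1, Cd209a, Gdf15, Runx1 and Gap43, undetected on all Sham+Saline arrays, they rest on undetected levels. Among macrophage, receptor and lysosome genes the interaction was -2.72 for Gpnmb, -2.51 for Ms4a6d, -2.68 for Ctss, -1.86 for Cd68, -2.0 for Tlr13, -1.93 for Tlr7, -1.81 for Lgals3, -1.87 for Ms4a7, -1.07 for Csf1r and -0.84 for H2-Ab1. Among other immune genes it was -2.10 for Ccl7, -2.02 for Ifit2, -0.85 for Klrd1 and -0.53 for Cd209a. All 14 genes rose in sham-operated muscle, and 12 of them rose after SCI too, by less. Ifit2 (0.44) and Cd209a (0.13) were not called after SCI.

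Among genes of myoblasts, junctions and injured fibres the interaction was -4.34 for Ankrd1, -2.69 for Myod1, -2.11 for Myog, -2.42 for Chrng, -1.73 for Chrna1, -2.03 for Runx1, -0.98 for Vcam1, -0.57 for Gap43, -2.88 for Id2, -1.60 for Gdf15, -0.88 for Sox9 and -1.45 for Cdk1. Among stress and protein turnover genes it was -2.44 for Calr, -1.91 for Hmox1, -2.15 for Mt1, -1.30 for Junb, -1.71 for Per1, -1.92 for Psat1, -0.71 for Marcksl1, -1.01 for Srm, -2.10 for Psme3, -2.0 for Psma4, -1.44 for Rps24 and -3.36 for the brightest probe of Mllt3.

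Interactions in the opposite direction were found among genes that fell in sham-operated muscle. Fibre and energy genes gave 2.88 for Tpra40, 2.95 for Retsat, 2.35 for Sptb, 2.32 for Kcnc1, 2.30 for Decr1, 1.8 for Acaa2, 1.49 for Thrsp, 1.44 for Pla2g12a, 1.44 for Ankrd2, 1.32 for Mybpc1, 1.14 for Ndufv1, 1.09 for Kcnj2, 0.90 for Myoz2, 0.76 for Ndufb10 and 0.76 for Cpt1b. Vessel, fat, nerve and fibroblast genes gave 2.88 for Cldn5, 2.0 for Sox18, 1.70 for Aqp1, 1.03 for Vegfa, 1.10 for Kcnj8, 2.56 for Pi16, 2.52 for Lep, 1.43 for Plin4 and 0.87 for Mag. The remaining positive interactions were 2.53 for Dusp1, 1.8 for Acvr2b, 1.56 for the brightest probe of Dyrk1b, 1.03 for Heyl, 0.91 for Arntl, 0.89 for Smox and, for a gene that rose in sham-operated muscle, 1.45 for Hp.

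In 21 of 292 groups of 4 arrays, 1 array lay far from the other 3 for a single gene, and chance gives about 1 in 20. Sham+Saline 4 was that array in 9 of the 21, as the highest for 8 genes: S100a8 was at 12.72 there, Col1a1 at 11.96, S100a9 at 11.30, Ltf at 9.89, Retnlg at 8.55, Uhrf1 at 7.88, Lcn2 at 7.66 and Cdk1 at 5.55. It was the lowest for Trim63 (8.18). Sham+Saline 3 stood apart for Mrc1 (8.0) and Tgfb1 (5.28), and Sham+Saline 2 for Ifit2 (5.60) and Il10ra (4.49). Sham+CDTX 4 stood apart for Oasl2 (9.88), Irf7 (7.15) and Hp (9.84). Sham+CDTX 2 stood apart for Csf1r (10.25) and Clec4d (8.07), Sham+CDTX 1 for Perm1 (8.98) and Trim63 (6.74), and Sham+CDTX 3 for Pi16 (6.66).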

How the results depend on the processing

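The count of 7219 called probes stayed within 1.5 times under every alternative run except the probe difference score, which gave 3203 (1724 higher, 1479 lower). Median scaling gave 7877, with 6705 higher and 1172 lower in place of 3411 and 3808. Of the 2476 probes past 1 log2, 991 were left without background correction. Leaving out 1 sham array at a time gave 6473 to 7084 called probes, 3082 to 3362 higher, 3391 to 3797 lower and 2389 to 2655 past 1 log2. The same replicate numbers did not pair the sham arrays. Deviations from the group means correlated at -0.08 to 0.06 for equal numbers, and no equal-numbered arrays were each other's best match. With the replicate number as a block 7073 probes were called (3351 higher, 3722 lower). Adding the probe difference score turned the sign for Tpra40 (0.41), Myh1 (-1.38), Pi16 (0.38), Cxcl14 (-0.011), Cldn5 (0.22), Aqp1 (0.12), Sox18 (0.34), Psme3 (-0.20), Psma4 (-0.75), Rps24 (-0.25), Calr (-0.78), Lep (0.34), Mllt3 (-2.72), Dyrk1b (0.24) and Tpsb2 (-0.51), of which only Mllt3 was called. It also turned for the medians of the endothelial (0.13), proteasome (-0.068) and Schwann cell and nerve lists (-0.60). Median scaling turned the medians of the dystrophin (0.057), pericyte (0.086), atrophy (0.23), clock (0.35) and keratinocyte lists (0.014), besides lists whose median lay within 0.1 of 0: neutrophil (0.086), BMP, TGF-beta and activin (0.43), neuromuscular junction (0.68), heat shock (0.42) and growth hormone (0.28). Such lists also turned under other alternatives. Counting every kept probe turned the clock (0.10) and Schwann cell and nerve lists (-0.34). Other probes had the opposite sign for Myl1 (-0.53), Tpm3 (-1.39, -1.45 and -1.5), Mllt3 (-0.77, -1.54 and -0.39), Ctnnb1 (-1.64), Actb (2.33), Dyrk1b (1.22) and Cpa3 (-0.37), as had the group means of the authors' deposited table for Myh4 (-0.21) and, among genes not called, Myl1 (-0.38), S100a8 (-2.58) and S100a9 (-2.93). The cause of these changes was not tested. Signal over background limits the dim genes: 538 called probes were not detected in Sham+Saline and 148 not in Sham+CDTX. A lower bound on the fold is given for described genes among them. Their other values, interactions and values with the score included, rest on undetected levels.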
